A study of Homo sapiens with 36 samples.

Results

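When DNA is damaged, the transcription factor p53 is stabilised and switches on genes that stop the cell cycle, together with genes that return the pathway to rest. The 10 genes described here belong to those arms of the response: *CDKN1A*, *BTG2*, *CCNG1*, *ZMAT3*, *SESN1*, *SESN2*, *PHLDA3*, *GDF15*, *MDM2* and *PPM1D*. They were taken by symbol, with earlier results of these data known but no measured value in the rule, out of 62757 genes listed in the count files. All 10 passed the filter on low counts, which kept 12356 genes.

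The samples were libraries of polyA mRNA from HCT-116, a human colorectal carcinoma line, and from its *FBXW7*-/- derivative (KO), both from a commercial supplier. *FBXW7* encodes the substrate receptor of a ubiquitin ligase. The sources used here do not say whether the KO line is a single clone. The study asked how loss of *FBXW7*, silencing of *HDAC4* and forced degradation of class IIa HDACs change the transcriptional response to oxaliplatin (OXPT), a platinum drug that crosslinks DNA. KO cells carried a control esiRNA (KO siCT), an esiRNA against *HDAC4* (KO siHDAC4) or the control esiRNA with the class IIa HDAC degrader #11, PROTAC11 in the titles (KO #11), for 48 h. WT cells carried an esiRNA that the label entries name in different ways, so that control and *HDAC4* esiRNA cannot be told apart for them, and they are called WT here. Each of these 4 backgrounds was left untreated or received OXPT at 50 µM for the last 24 h. This gave 8 groups of 3 replicates, 24 libraries in all. The entries give #11 at 1 µM or at 10 µM, and which was used is not settled. Nothing in the labels says that the replicates were separate cultures, so p-values measure the spread between these libraries, which may be technical.

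The 24 libraries held 10725966 to 20527222 counts on genes, with a median of 14510758. The epithelial markers *EPCAM*, *CDH1*, *KRT8*, *KRT18* and *KRT19* were present in every library, whereas *PTPRC*, *CD3E*, *COL3A1*, *PECAM1* and *ALB*, markers of blood, stromal, endothelial and liver cells, stayed at or below 1.44 CPM (TMM-scaled counts relative to library size, as in every level given here). *COL1A1*, the other stromal marker examined, was counted in every library, at 25.1 to 77.6 CPM. *HDAC4* averaged 19.1 CPM in untreated KO siCT and 10.9 CPM in untreated KO siHDAC4, and its log2 difference of -0.82 ± 0.24 (SE) missed the call (adjusted p = 0.561). *FBXW7* was counted in KO cells at 13.9 to 55.1 CPM, so whole-gene counts do not check the genotype. Replicate 3 stood apart in several groups. In WT untreated replicate 3, 13.8% of reads were unmapped, against a median of 9.29% over the 24 libraries, and KO siCT OXPT replicate 3 reached 22.3%. WT untreated replicate 3 was also extreme for *SESN2* (312 CPM) and *GDF15* (2994 CPM), and results that rest on it are given with and without it. No rule on read quality set this choice, so the p-values without it follow a choice made with the values seen.

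p53 binds as a tetramer to a pair of decamers, each made of purines, a central C, A or T, A or T, G and then pyrimidines. RefSeq start sites (GRCh38.p14) were found for 9 of the 10 genes, *PHLDA3* being the exception. The region from 3000 bases before to 3000 bases after each start was read from hg38 and searched on both strands for the 20-base consensus without spacer, with the C and G of both decamers required. These sequences are shown because 6 of the 9 genes held a match with at most 2 mismatches, against 4.79% of the 9475 tested genes that have a RefSeq start. The best match in each gene is given in the orientation of the gene, with the required C and G in capitals.
ZMAT3: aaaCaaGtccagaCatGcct
CCNG1: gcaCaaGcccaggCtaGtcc
CDKN1A: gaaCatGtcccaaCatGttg
MDM2: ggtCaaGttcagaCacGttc
BTG2: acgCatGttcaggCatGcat
GDF15: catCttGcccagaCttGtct
PPM1D: gcaCttGttccggCcaGctc
SESN2: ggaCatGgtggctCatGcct
SESN1: ggcCagGgttcggCgaGcct

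The match in *ZMAT3* (chr3:179070188-179070207, minus strand) had 0 mismatches and lay in an intron, 1602 bases downstream of the start, and as few mismatches were seen in 0.137% of tested genes. *CCNG1* (chr5:163437926-163437945) had 1 mismatch, in an intron, 355 bases downstream, and 0.707% of tested genes had as few. Matches with 2 mismatches were found in *CDKN1A* (chr6:36676449-36676468, 2265 bases upstream, reaching into an exon of a longer transcript), in an intron of *MDM2* (chr12:68808923-68808942), and upstream of *BTG2* (chr1:203303642-203303661) and *GDF15* (chr19:18385308-18385327, within an intron of a longer transcript). *PPM1D* (chr17:60599720-60599739) had 3 mismatches, and 26.1% of tested genes had as few. *SESN2* (chr1:28258149-28258168) had 4 and *SESN1* (chr6:109094601-109094620, minus strand, exonic) had 5, which 65.2% and 91.5% of tested genes also reached. The window of 300 bases at the start itself held no exact decamer in any of the 9 genes, and 5.1% of all promoters of that length held one. A match is a description of the letters, and no match says nothing of p53 binding elsewhere.

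OXPT raised most of the 10 genes in every background. In KO siCT, 8 of 10 passed the call for a higher level, an adjusted p under 0.05 in edgeR's quasi-likelihood test over all genes and a fold over 1.5, against 6.23% of the 12356 genes called higher and 11.3% called in either direction. In KO siHDAC4 the count was 8 of 10 (6.44% of all genes higher, 12% in either direction), in KO #11 it was 7 of 10 (5.94% and 9.51%) and in WT 7 of 10 (5.1% and 10.7%). None was called lower. In these bulk libraries a change in the share of responding cells and a change in RNA per cell cannot be told apart. The median log2 fold change of the 10 genes was 2.48, 2.11, 2.13 and 1.93 in that order, whereas the median over all genes tested lay between -0.06 and 0.02. *CDKN1A*, *MDM2*, *PPM1D*, *BTG2*, *SESN1*, *ZMAT3* and *PHLDA3* were called in all 4 backgrounds.

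**Figure D1:**
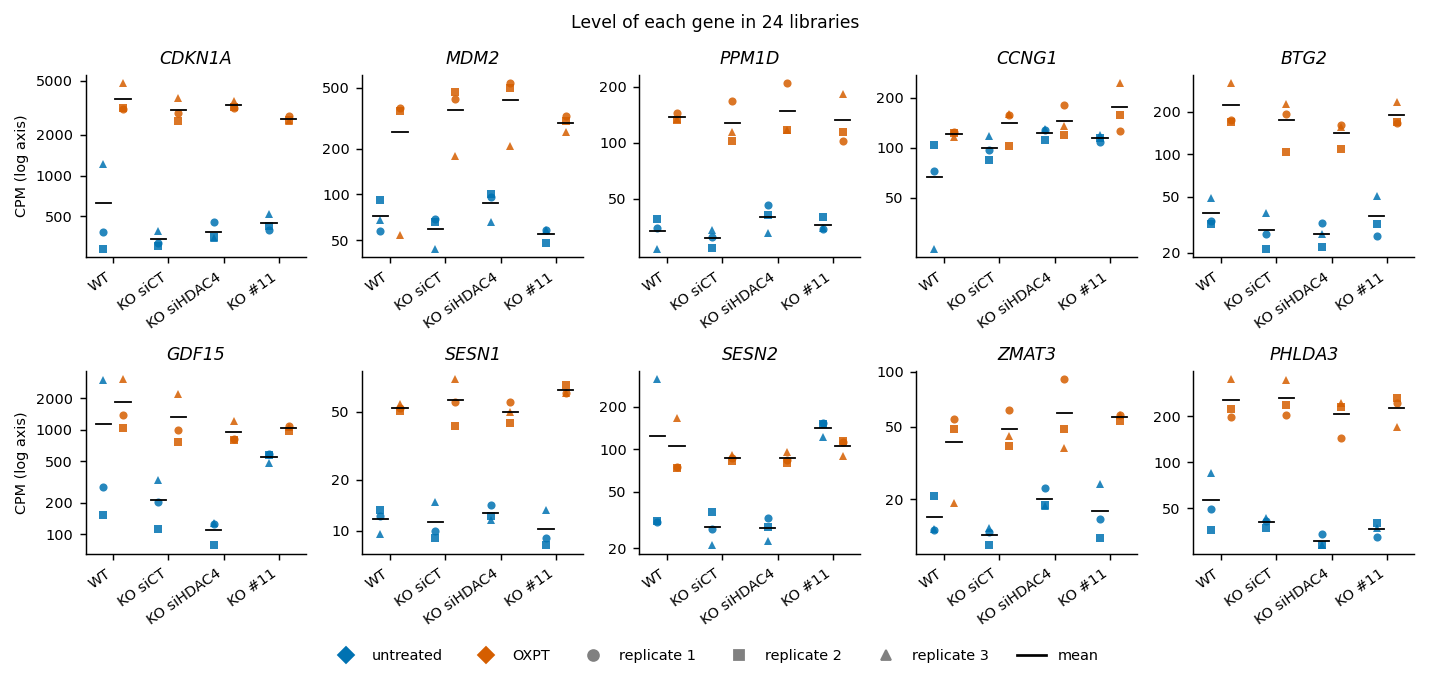
CPM (log axis) of the 10 genes in each library, by background, untreated in blue and OXPT in orange, with the replicate number as symbol and the group mean as a line. *CDKN1A*, *PPM1D*, *BTG2*, *SESN1* and *PHLDA3* separate all 12 OXPT libraries from all 12 untreated ones, and *SESN2* and *GDF15* stand high in untreated #11 and in WT untreated replicate 3.

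*CDKN1A* (ENSG00000124762.14, chr6:36676460-36687337) encodes p21, the inhibitor of cyclin-dependent kinases that carries out the p53 arrest. Its level in untreated KO siCT was 319.8, 303 and 390.4 CPM in replicates 1 to 3, and 2879, 2542 and 3752 CPM with OXPT. In KO siHDAC4 it went from 454, 355 and 347 CPM to 3155, 3183 and 3546 CPM. KO #11 cells held 399.8, 424 and 519 CPM untreated and 2764, 2585 and 2508 CPM with OXPT. The groups were far apart in all 3 KO backgrounds, and the SD within their OXPT groups ran from 132 CPM in KO #11 to 624 CPM in KO siCT. The log2 fold change was 3.18 ± 0.38 (SE, n = 3 against 3, edgeR, adjusted p = 1.65e-05) in KO siCT, 3.10 ± 0.38 (adjusted p = 2.15e-05) in KO siHDAC4 and 2.55 ± 0.37 (adjusted p = 0.000136) in KO #11. In WT, untreated levels were 381, 288 and 1221 CPM, and OXPT levels 3099, 3121 and 4821 CPM. The log2 fold change of 2.55 ± 0.37 (adjusted p = 0.000135) included the high untreated replicate 3, and without that library it was 3.47 (adjusted p = 6.53e-07). In the fit of the WT groups alone, *CDKN1A* missed the call (adjusted p = 0.134), and 3 of the 10 genes were called against 0.713% of all genes. Without number 3 in both WT groups, 9 of the 10 were called, against 10.1% of all genes.

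*BTG2*, an antiproliferative gene of the BTG/TOB family (chr1:203305491-203309602), rose from 27.0, 21.3 and 38.4 CPM to 192, 104 and 225 CPM in KO siCT, a log2 fold change of 2.58 ± 0.34 (adjusted p = 4.28e-05). In the other backgrounds its log2 fold change was 2.38 (KO siHDAC4), 2.38 (KO #11) and 2.54 (WT). The lowest OXPT library over all backgrounds, at 104 CPM, was above the highest untreated one, at 50.7 CPM. *PHLDA3*, which encodes a pleckstrin-homology protein that restrains AKT (chr1:201464278-201469237), went from 41.3, 37.5 and 43.3 CPM to 204, 238 and 346 CPM in KO siCT. Its log2 fold change was 2.69 ± 0.30 there (adjusted p = 1.12e-05), 2.76 in KO siHDAC4, 2.63 in KO #11 and 2.18 in WT. An overlapping lncRNA on the same strand shares 18.4% of the exon bases of *PHLDA3*, and unstranded counting leaves out reads on shared bases.

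*ZMAT3*, an RNA-binding zinc finger protein (chr3:178960121-179072215), had one of the lowest levels per exon length among the 10 genes. It rose from 13.3, 11.2 and 14 CPM to 61.4, 39.4 and 44.4 CPM in KO siCT, a log2 fold change of 1.91 ± 0.36 (adjusted p = 0.00132), by 1.56 in KO siHDAC4 and by 1.71 in KO #11. In WT the OXPT libraries held 55.1, 48.8 and 19.2 CPM against 13.6, 20.9 and 13.8 CPM untreated. Replicate 3 with OXPT thus fell within the untreated range, and the log2 fold change of 1.35 ± 0.35 (adjusted p = 0.0168) lost its call without WT OXPT replicate 1, WT OXPT replicate 2 or WT untreated replicate 1.

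*CCNG1* encodes cyclin G1, which binds the phosphatase PP2A and acts back on MDM2 (chr5:163437569-163446151). It had the highest untreated level per exon length after *CDKN1A* and *GDF15* in KO siCT, at 32.0 CPM per kb, and the smallest response in that background. It measured 96.3, 84.2 and 117 CPM untreated and 157, 103 and 159 CPM with OXPT, and these groups overlapped. The log2 fold change was 0.49 (95% interval -0.20 to 1.19, adjusted p = 0.376) in KO siCT and 0.24 (-0.45 to 0.94) in KO siHDAC4. It was 0.62 (-0.08 to 1.32) in KO #11 and 0.84 (0.14 to 1.55, adjusted p = 0.117) in WT. All 4 were above 0 and none passed the call. In WT untreated replicate 3, *CCNG1* was at 24.7 CPM, against 72.6 and 104 CPM in the other replicates. Without that library the WT log2 fold change was 0.45. Without WT untreated replicate 2 it was 1.29 and passed the call (adjusted p = 0.0246).

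The sestrins are stress-induced proteins that inhibit mTORC1 and act against oxidation. *SESN1* (chr6:108984309-109094846) was called in all 4 backgrounds and *SESN2* (chr1:28259518-28282491) in none. *SESN1* went from 9.90, 9.06 and 14.7 CPM to 57.4, 41.4 and 77.7 CPM in KO siCT, a log2 fold change of 2.39 ± 0.25 (adjusted p = 5.23e-06). It rose by 1.98 in KO siHDAC4, by 2.72 in KO #11 and by 2.18 in WT on the same scale.

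*SESN2* measured 27.5, 35.9 and 21 CPM in untreated KO siCT and 87.3, 82.3 and 90.9 CPM with OXPT. In KO siHDAC4 it was at 32.5, 28.2 and 22.4 CPM, and at 84.0, 80.6 and 96.1 CPM with OXPT. The groups did not overlap in either background, as was so for 30.1% and 35.4% of all genes, with log2 differences of 1.63 ± 0.58 (adjusted p = 0.0751) and 1.65 ± 0.58 (adjusted p = 0.0694), neither past the call. In KO #11 the untreated libraries were already at 153, 151 and 122 CPM, and those with OXPT held 113, 115 and 89.7 CPM, all below the untreated ones. In that background 42.5% of all genes had no overlap, in either direction. The log2 difference there was -0.42 (95% interval -1.60 to 0.75, adjusted p = 0.704). In WT the values were 30.8, 31.2 and 312 CPM untreated and 75.1, 74.1 and 167 CPM with OXPT.

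The calls of *SESN2* changed when WT untreated libraries were left out. Without WT untreated replicate 3, the log2 fold change of *SESN2* in WT turned from -0.24 (adjusted p = 0.837) to 1.78 (adjusted p = 0.000703). The tests in KO siCT and KO siHDAC4 hold that library only through the fit common to all groups, with its shared estimate of the spread. There the differences stayed at 1.62 and 1.64 and passed the call (adjusted p = 0.000366 and 0.000317), as they also did without WT untreated replicate 1 or 2. Without that library 15.2%, 15.5%, 12.1% and 17% of 12363 genes were called in KO siCT, KO siHDAC4, KO #11 and WT.

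*GDF15* (chr19:18374731-18389176), a secreted cytokine of the TGF-beta superfamily that rises in many kinds of stress, shared part of this pattern. It went from 202, 113 and 327 CPM to 999.6, 754 and 2192 CPM in KO siCT, a log2 fold change of 2.62 ± 0.75 (adjusted p = 0.0262), and from 125, 78.0 and 127 CPM to 818, 787 and 1215 CPM in KO siHDAC4, a change of 3.09 ± 0.76 (adjusted p = 0.0103). The call in KO siCT was lost without KO siCT OXPT replicate 3, untreated replicate 1 or untreated replicate 2, and that in KO siHDAC4 without its untreated replicate 2. In KO #11 the untreated libraries held 584, 568 and 474 CPM and those with OXPT 1090.2, 973 and 1055 CPM. These did not overlap, as in 42.5% of all genes, and the log2 difference of 0.94 (95% interval -0.54 to 2.42, adjusted p = 0.464) missed the call. In WT, 280.2, 152 and 2994 CPM untreated stood against 1384, 1036 and 3030.1 CPM with OXPT, a log2 difference of 0.67 (adjusted p = 0.613) that became 3.09 (adjusted p = 0.000631) without WT untreated replicate 3.

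**Figure D2:**
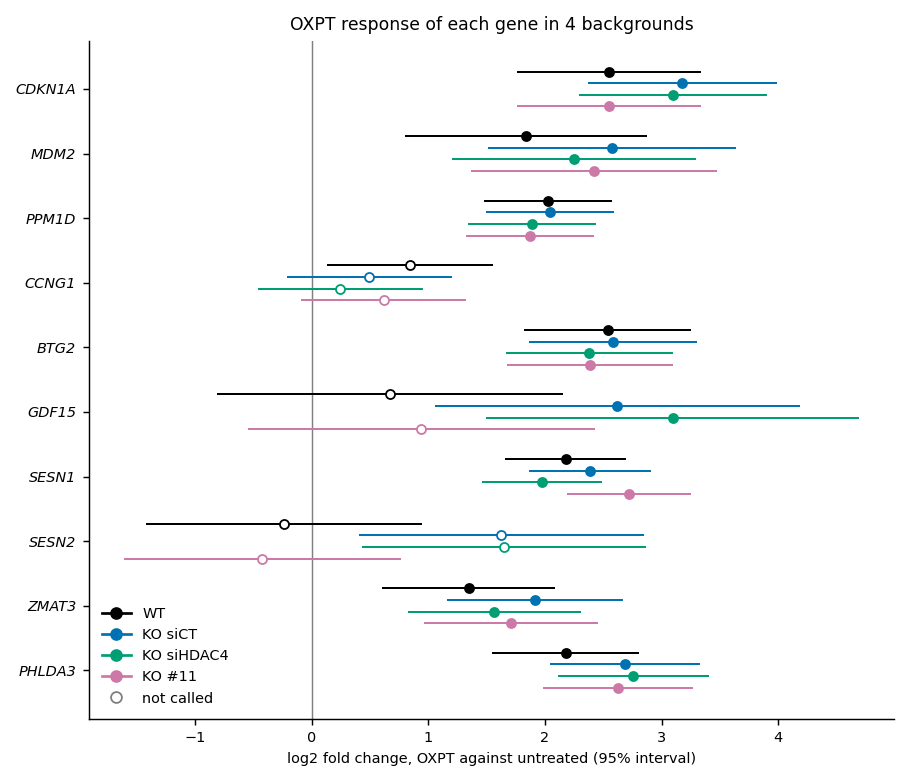
Log2 fold change of each gene, OXPT against untreated, in WT, KO siCT, KO siHDAC4 and KO #11, with 95% intervals from the edgeR fit over 24 libraries (3 per group). Filled points passed the call, and the 4 estimates lie close together for 8 genes and apart for *GDF15* (0.67 to 3.09) and *SESN2* (-0.42 to 1.65).

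The feedback genes *MDM2* and *PPM1D* encode the ubiquitin ligase that removes p53 and the phosphatase WIP1, which reverses damage-induced phosphorylation of p53 and its kinases. *PPM1D* (chr17:60600193-60666280) was even across backgrounds. It went from 31.4, 27.4 and 34.1 CPM to 166, 102 and 115 CPM in KO siCT, with a log2 fold change of 2.04 ± 0.26 (adjusted p = 2.67e-05), and changed by 1.89, 1.87 and 2.03 in KO siHDAC4, KO #11 and WT.

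*MDM2* (chr12:68808177-68845544) rose in all 4 backgrounds, and its level with OXPT differed with the replicate number. In KO siCT it was at 69.1, 65.7 and 44 CPM untreated and at 421, 468 and 177 CPM with OXPT. In KO siHDAC4 the OXPT libraries held 538, 497 and 207 CPM and in KO #11 327, 302 and 258 CPM. In WT they held 366, 353 and 54.5 CPM, against 57.3, 91.5 and 67.9 CPM untreated. Replicate 3 was the lowest of each OXPT group, and in WT it lay below all 3 untreated libraries. On the log2 scale it was 1.32 below the mean of the other OXPT replicates in KO siCT, 1.32 below in KO siHDAC4 and 2.72 below in WT. The same WT library was the highest of its group for *CDKN1A*, *BTG2*, *GDF15*, *SESN1*, *SESN2* and *PHLDA3*. The log2 fold changes of *MDM2* were 2.58 ± 0.51 (adjusted p = 0.00192), 2.25 ± 0.50 (adjusted p = 0.00495), 2.42 ± 0.50 (adjusted p = 0.00377) and 1.84 ± 0.49 (adjusted p = 0.0192) in KO siCT, KO siHDAC4, KO #11 and WT. The WT call was lost without WT OXPT replicate 1, WT OXPT replicate 2 or WT untreated replicate 1. Other annotated genes share 14.7% of the exon bases of *MDM2*, and reads on them are not counted.

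Per kb of exon, *CDKN1A* had the highest mean level with OXPT in every background, from 874 CPM per kb in KO #11 to 1228 CPM per kb in WT, followed by *GDF15* at 450.3 to 870.5 CPM per kb. *ZMAT3* and *SESN1* had the lowest, at 3.63 to 5.26 and 6.87 to 9.21 CPM per kb. For *CDKN1A*, *PPM1D*, *BTG2*, *SESN1* and *PHLDA3* the 4 OXPT groups ranked above the 4 untreated groups with no overlap between them. Neighbouring groups within the OXPT set and within the untreated set overlapped for these 5 genes. For *MDM2*, *CCNG1* and *ZMAT3* every group overlapped its neighbour in the order. For *SESN2* untreated #11 had the highest mean, at 142 CPM, and of all neighbours in the order only KO siCT with OXPT, at 86.9 CPM, and untreated KO siCT, at 28.1 CPM, did not overlap.

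**Figure D3:**
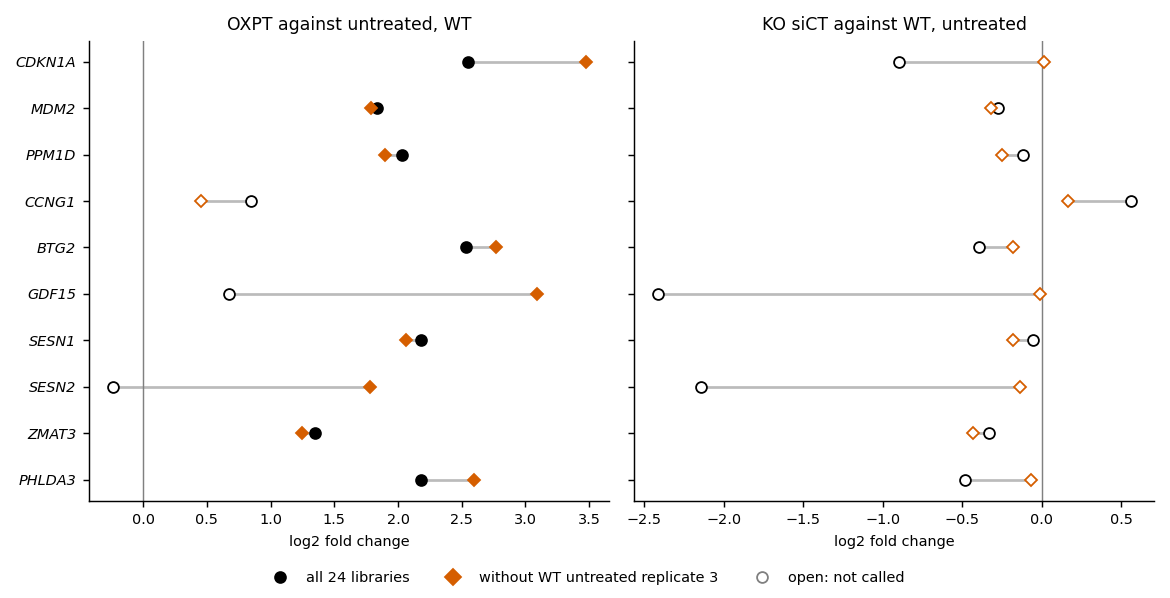
Log2 fold changes of the 10 genes with all 24 libraries (black circles) and without WT untreated replicate 3 (orange diamonds), for OXPT against untreated in WT and for KO siCT against WT untreated; filled symbols passed the call. *SESN2* and *GDF15* move most, from -0.24 to 1.78 and from 0.67 to 3.09 in the left panel.

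KO siCT was set against WT to examine loss of *FBXW7*. The esiRNA of the WT cells is not settled, so genotype and a possible silencing of *HDAC4* in WT cannot be told apart in these comparisons. Untreated, *HDAC4* averaged 22.0 CPM in WT, 19.1 CPM in KO siCT and 10.9 CPM in KO siHDAC4. With OXPT it averaged 8.98, 6.50 and 3.88 CPM in that order. Whether *HDAC4* was silenced in WT was not tested. None of the 10 genes passed the call in untreated cells, where 0.291% of genes did, or with OXPT (0.138%). In untreated cells 709 of the 12356 genes had an unadjusted p under 0.05, among them *SESN2*, *GDF15* and *CDKN1A* of the 10 genes. The untreated log2 differences, KO siCT minus WT, were -2.15 ± 0.59 for *SESN2* (adjusted p = 0.192), -2.42 ± 0.74 for *GDF15* (adjusted p = 0.334) and -0.90 ± 0.36 for *CDKN1A* (adjusted p = 0.633). Without WT untreated replicate 3 they were -0.14, -0.01 and 0.02, with 0.178% of genes called. By DESeq2 with all 24 libraries, *GDF15* was called in untreated cells (adjusted p = 0.0334), where 117 of all genes were called in place of 36. With OXPT the 10 differences ranged from -0.47 (*GDF15*) to 0.46 (*MDM2*), on both sides of 0, and no gene had an unadjusted p under 0.05. The difference between the OXPT responses, KO siCT minus WT, was 0.63 for *CDKN1A* (95% interval -0.41 to 1.67), 0.74 for *MDM2* (-0.67 to 2.15) and 0.02 for *PPM1D* (-0.72 to 0.75). No gene of the 12356 passed in that test, and 201 had an unadjusted p under 0.05, with *SESN2* (1.87, unadjusted p = 0.031) as the only one of the 10. Without WT untreated replicate 3 the *SESN2* value was -0.16.

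Silencing of *HDAC4* in KO cells gave no call among the 10 genes, untreated (0.00809% of all genes called) or with OXPT (0% called, 380 genes at an unadjusted p under 0.05, none of them among the 10). In untreated cells *ZMAT3* measured 23.2, 18.7 and 18.4 CPM with siHDAC4 against 13.3, 11.2 and 14 CPM with siCT, and the groups did not overlap, as in 21.7% of all genes in this comparison. The log2 difference was 0.65 (95% interval -0.08 to 1.37, adjusted p = 1 in edgeR). *PHLDA3*, the other of the 10 genes whose groups did not overlap, was lower with siHDAC4, at 34.1, 28.9 and 28.7 CPM against 41.3, 37.5 and 43.3 CPM, a difference of -0.41 (-1.01 to 0.19). With OXPT the 10 differences lay between -0.48 and 0.30. The OXPT responses of the 10 genes, KO siHDAC4 minus KO siCT, differed by -0.41 (*SESN1*) to 0.47 (*GDF15*), with 0 calls over all genes and 19 genes at an unadjusted p under 0.05.

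With #11 alone, *SESN2* and *GDF15* had the largest differences of the 10 genes. Replicate numbers did not pair the #11 with the siCT libraries, though they paired siHDAC4 with siCT. An effect of #11 and a difference in how these libraries were made cannot be told apart. In untreated KO cells *SESN2* was at 153, 151 and 122 CPM with #11 and at 27.5, 35.9 and 21 CPM with siCT, a log2 difference of 2.34 ± 0.59 that missed the call (adjusted p = 0.0819, with 0.51% of all genes called). It passed without WT untreated replicate 3 (2.34, adjusted p = 0.000269, with 2.73% of genes called), and also without WT untreated replicate 1 or 2. *GDF15* was at 584, 568 and 474 CPM against 202, 113 and 327 CPM, a difference of 1.34 (95% interval -0.15 to 2.83, adjusted p = 0.426). For *CDKN1A* the libraries were at 399.8, 424 and 519 CPM against 319.8, 303 and 390.4 CPM, which do not overlap, as in 31.9% of all genes, and the difference was 0.41 (-0.33 to 1.15, adjusted p = 0.679). The remaining 7 genes lay between -0.15 and 0.43. With OXPT none was called between #11 and siCT, where 0.121% of all genes were. The 10 differences then lay between -0.34 (*GDF15*) and 0.33 (*CCNG1*), and *HDAC4* mRNA was higher with #11, by 1.36 ± 0.25 (adjusted p = 0.0383).

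The OXPT response of *SESN2* differed between KO #11 and KO siCT by -2.05 ± 0.81 on the log2 scale (unadjusted p = 0.0194, adjusted p = 0.585 in edgeR), and that of *GDF15* by -1.68 ± 1.00 (adjusted p = 0.832). No gene of the 12356 passed in this test, and 863 had an unadjusted p under 0.05. Without WT untreated replicate 3 the *SESN2* difference was -2.07 and passed (adjusted p = 0.0221), where 0.315% of genes did. *CDKN1A* differed by -0.63 (95% interval -1.67 to 0.41) and *SESN1* by 0.33 (-0.36 to 1.03), neither beyond the error.

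*SESN2* and *GDF15* are also targets of ATF4, the transcription factor of the integrated stress response, and other ATF4 targets, taken as a list, were high in the same libraries. In untreated KO cells, 11 of 11 tested genes of that list were higher with #11 than with siCT, with a median log2 difference of 1.46 against -0.003 over all genes, and 1 was called, against 0.38% of all genes called higher. That gene was *ATF3*, at 18.4 CPM with siCT and 172 CPM with #11 (adjusted p = 0.039). Without WT untreated replicate 3, 6 of the 11 were called. *TRIB3*, a pseudokinase induced by ATF4, measured 62.1 and 325 CPM (adjusted p = 0.0824), and *DDIT3*, which encodes CHOP, 11.6 and 105 CPM (adjusted p = 0.0908). With OXPT in KO #11, 11 of 11 were lower than untreated and 5 were called lower, against 3.57% of all genes, among them *PHGDH*, *ASNS* and *SLC7A11*. The count was 9 without WT untreated replicate 3, 8 with the replicate block and 10 without number 3 in every group. In KO siCT, OXPT gave 1 called higher (*ATF3*) and 1 called lower (*PHGDH*) among the 11, near the 6.23% and 5.08% of all genes called.

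The mean standardised log2 CPM of the ATF4 list was 1.28 to 1.53 in the 3 untreated #11 libraries, 2.00 in WT untreated replicate 3 and -0.88 to 0.57 in the other 20 libraries. The 12 immediate early genes, such as *JUN* and *EGR1*, stood high in the same libraries, at 0.90 to 1.04 in untreated #11 and 1.86 in WT untreated replicate 3, and also reached 1.48 in WT OXPT replicate 3. Across the 24 libraries, which share 8 groups, Pearson's r with the ATF4 list was 0.638 for *SESN2* and 0.275 for *GDF15*, and between -0.441 and -0.166 for the other 8 genes. The part of this list in the results on *SESN2* and *GDF15* was not tested.

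**Figure D4:**
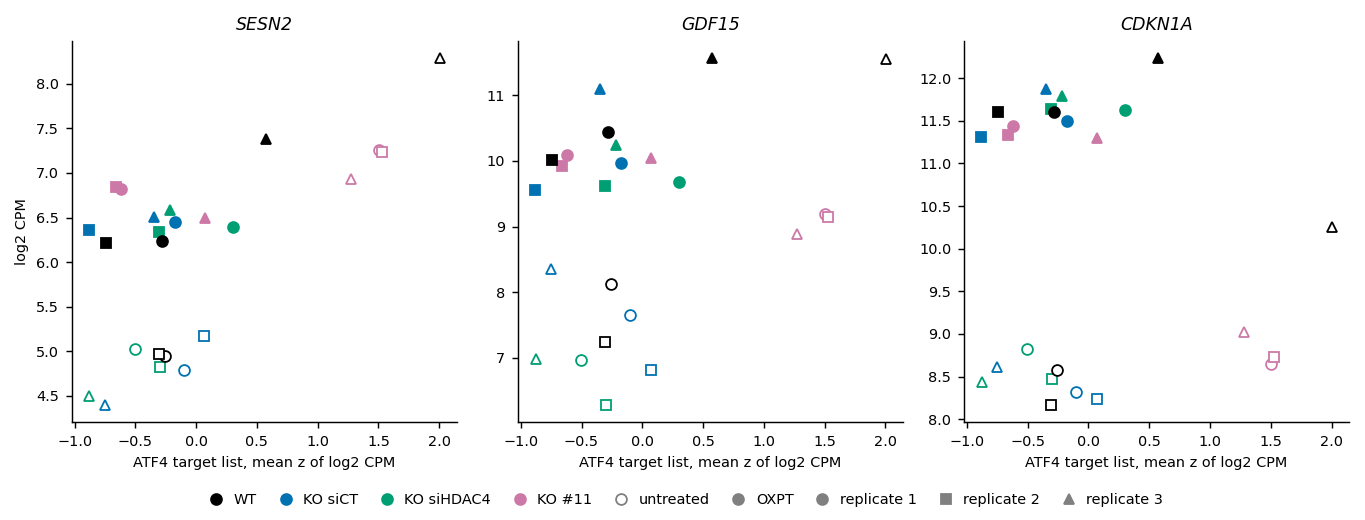
Log2 CPM of *SESN2*, *GDF15* and *CDKN1A* against the mean standardised log2 CPM of the ATF4 target list in each of 24 libraries; colours give the background, open symbols untreated and filled symbols OXPT. The 3 untreated #11 libraries and WT untreated replicate 3 lie to the right, at 1.28 or above, where *SESN2* is at 122 to 312 CPM; WT OXPT replicate 3, at 0.57, holds 167 CPM.

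The 10 genes varied together between groups and less so within them. Over the 24 libraries the median Pearson's r of log2 CPM over the 45 pairs of genes was 0.757 (from -0.148 to 0.975). After subtraction of the group means it was 0.04 (from -0.804 to 0.94). The correlation with the mean of the other 9 genes was 0.96 for *BTG2* and *CDKN1A*, 0.95 for *SESN1* and *PPM1D*, 0.93 for *PHLDA3*, 0.87 for *ZMAT3*, 0.78 for *MDM2*, 0.72 for *GDF15*, 0.45 for *SESN2* and 0.40 for *CCNG1*. The genes outside the set that followed its mean level most closely over the 24 libraries were *INKA2* (r = 0.983), *ELAPOR1* (0.981), *DRAM1* (0.979), *SYT8* (0.975) and *NTPCR* (0.974). They share with it the difference between the 12 untreated and 12 OXPT libraries, and their log2 fold changes with OXPT in KO siCT were 3.03, 3.79, 1.55, 4.46 and 1.36.

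Most other p53 targets on the lists rose with the 10 genes in response to OXPT. In KO siCT, 11 of 17 tested genes of the list of further targets for arrest, growth and feedback were called higher, against 6.23% of all genes, among them *SUSD6*, *DUSP14* and *RPS27L*. On the apoptosis list 10 of 15 were, including the decoy receptor *TNFRSF10C* and *PIDD1*. For DNA repair and nucleotide supply the count was 4 of 7, with *POLH*, the polymerase that bypasses lesions, at 24.2 and 98.3 CPM. On the list for metabolism, redox state and autophagy it was 9 of 12, with *FDXR* at 130.3 and 647 CPM. None of these genes was called lower, and the list medians were 1.85, 1.58, 1.14 and 1.40. In WT the counts were 9, 10, 5 and 9 (5.1% of all genes called higher). In KO siHDAC4 they were 9, 11, 4 and 9 (6.44%), and in KO #11 11, 10, 5 and 11 (5.94%). The first of these lists holds *FBXW7*, the gene knocked out. It is counted as called higher in KO siCT (log2 fold change 1.33) and KO #11 (1.09), not in KO siHDAC4 or WT. On that list 16 of 17 genes were above 0 in KO siCT and 12 in KO #11, with lowest values of -1.55 and -1.31. Of the 12 tested genes of the list for regulation of the pathway, only *PML*, a scaffold of nuclear bodies, was called higher in KO siCT, KO siHDAC4, KO #11 and WT, with log2 fold changes of 1.03, 0.92, 1.52 and 1.12. Of all genes 6.23%, 6.44%, 5.94% and 5.1% were called higher in that order. Called lower were 0, 2, 1 and 2 genes of that list, against 5.08%, 5.54%, 3.57% and 5.6% of all genes. Among them was the checkpoint kinase *CHEK1* in KO siHDAC4 and WT.

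Genes of the cell cycle that p21 silences through the DREAM complex were lower with OXPT. In KO siCT 12 of 29 were called lower, against 5.08% of all genes, and 29 of 29 were below 0, with a median log2 fold change of -1.22. *CCNB1*, the mitotic cyclin B1, went from 252 to 63.1 CPM and the mitotic kinase *PLK1* from 183 to 39.6 CPM. In KO siHDAC4 12 were called lower (5.54% of all genes), in WT 13 (5.6%) and in KO #11 5 (3.57%), with medians of -1.38, -1.24 and -0.74. In untreated KO cells 28 of 29 were already lower with #11 than with siCT, with a median of -0.72 and 0 calls. Among the 10 genes, Pearson's r with the mean level of this list over 24 libraries was between -0.90 (*BTG2*) and -0.42 (*CCNG1*).

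**Figure D5:**
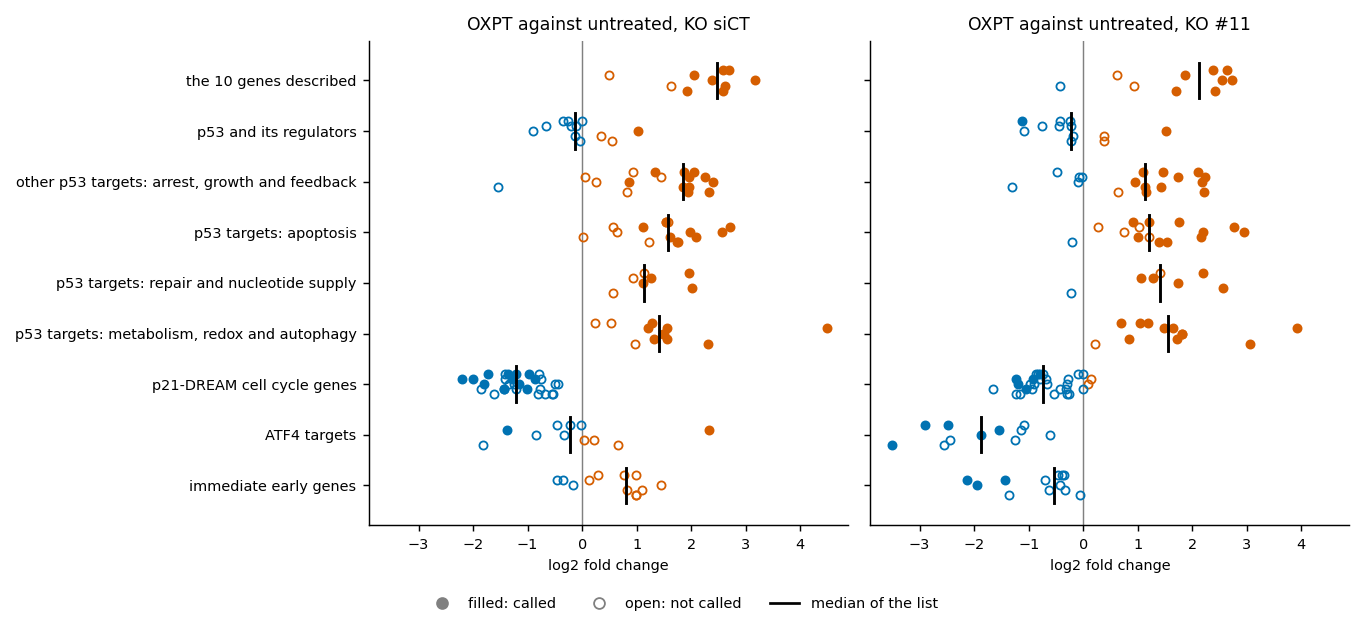
Log2 fold change with OXPT of every tested gene of each list in KO siCT and KO #11; points are genes (orange above 0, blue below), filled where called, and the line is the median of the list. The 10 genes have medians of 2.48 and 2.13, the cell cycle list lies below 0 in KO siCT, and the ATF4 list has a median of -1.88 in KO #11.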

How the data were processed

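Each library came as a file of raw gene counts that the authors deposited in STAR's layout, with unstranded, forward-strand and reverse-strand columns. Trimmomatic 0.39, STAR 2.7.11a and hg38 are named in the submitters' processing notes, and the annotation is not given in the sources used here. In its methods the paper quantifies with salmon and tests with DESeq2 instead. The labels name a stranded kit, but reverse-strand totals were 1.00 to 1.02 times the forward ones, so the unstranded counts were used. A median of 11.2% of reads per library was ambiguous and not counted. GENCODE 44 gave symbols, coordinates and exon lengths (62639 of 62757 identifiers matched without version).

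Of 36 libraries, 24 form the 8 groups. For 12 WT libraries the title and the treatment entry give opposite OXPT states, and they entered no comparison. No pair of replicates agreed within sampling noise (chi-square per degree of freedom of at least 8.31). The tests used edgeR 4.0.16 (R 4.3.3), with TMM scaling, a coefficient for every group and quasi-likelihood F tests, on genes whose mean count reached 64 in a group or more. A gene was called at a fold above 1.5 with p below 0.05 after Benjamini-Hochberg adjustment. All 24 libraries were fitted together and shared an estimate of the spread of each gene, so a library could alter the calls in comparisons of other groups. The SE was |log2 fold change| divided by the root of F. A prior count of 2 was added for log2 CPM. The fit was tested on simulated data. Alternatives included DESeq2 1.42.0, RLE scaling, reverse-strand counts, other count filters, a replicate block and leaving out each library. The 13 comparisons share control groups and are not independent.

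Replicate numbers were taken to pair libraries where, for every number, deviations from the group means correlated across genes with r over 0.1. The main tests did not use this pairing, and the replicate block was an alternative only. The lowest r was 0.176 to 0.325 in the 4 OXPT comparisons. The numbers did not pair #11 with siCT, where the lowest r was -0.252 untreated and -0.233 with OXPT.

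The 10 genes and all gene lists were chosen with earlier results of these data known. Named genes of a list are up to 3 with the lowest p in the comparison described, and the 5 genes most like the set are those with the highest Pearson's r. The checkpoint kinase *CHEK1* in WT and KO siHDAC4, *FBXW7* as the gene knocked out and the non-epithelial markers are named beside these.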

Additional observations from a re-analysis of the deposited data

Results flagged for a closer look

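With OXPT, all 3 *SESN2* libraries of KO siCT were above their untreated ones, whereas all 3 of KO #11 were below theirs. OXPT and untreated libraries did not overlap, in either direction, for 30.1% of all genes in KO siCT and 42.5% in KO #11. The difference between these OXPT responses, KO #11 minus KO siCT, was -2.05 on the log2 scale and missed the call in the edgeR fit (adjusted p = 0.585).

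The 12 WT libraries in no group were normalized with the other 24 and compared with the WT untreated group. The number above its highest library was 8 of 12 for *CDKN1A*, *CCNG1*, *SESN1* and *PHLDA3*, 9 for *PPM1D* and *BTG2*, and 10 for *ZMAT3*. It was 4 for *MDM2*, 2 for *GDF15* and 1 for *SESN2*, where the highest WT untreated library is replicate 3 for *GDF15* and *SESN2*. *CDKN1A* ranged from 505 to 4730 CPM in them (median 2402 CPM), against at most 1200 CPM in WT untreated and at least 3045 CPM in WT OXPT on the same scale. Libraries with OXPT in the title held 2888 to 4730 CPM and those without it 505 to 1916 CPM, and the treatment entries give the opposite OXPT states. The highest WT untreated library was at 2943 CPM for *GDF15* and 307 CPM for *SESN2*. Libraries with PROTAC11 in the title held 1471 to 6852 CPM of *GDF15* and 110 to 262 CPM of *SESN2*. Those with siHDAC4 in the title held 157 to 1391 CPM and 25.8 to 353 CPM, and their treatment entries name #11 instead.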

How the results depend on the processing

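Of 1320 values of the 10 genes in the 4 OXPT responses under the alternatives, 1283 kept direction and call, 20 gained and 14 lost the call, and 3 reversed. The reversals were *SESN2* in WT, which ranged from -0.74 to 1.78 on leaving out each library (1.78 without WT untreated replicate 3) and was 1.27 without number 3 in both WT groups and 1.28 without number 3 in every group. The alternatives without number 3 were chosen after seeing the data. Without number 3 in every group, *SESN2* in KO siCT against WT untreated turned to 0.039. The difference of OXPT responses, KO siCT minus WT, ranged on leaving out each library from -0.47 to 2.53 for *GDF15* and from -0.16 to 2.35 for *SESN2*, with the lowest value of both without WT untreated replicate 3, and for *GDF15* it was -0.0099 without number 3 in every group. In WT, 3 of the 10 genes were called when only these groups were fitted (0.713% of genes called), and 9 without number 3 in both WT groups (10.1%). The causes were not tested.

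Counts that were 0 of 10 became, in KO siCT against WT untreated, 1 by DESeq2 and 2 without the count filter, and 0 to 2 on leaving out each library. Over all genes the main fit called 36 there, DESeq2 117 and the fit without the count filter 322. For #11 against siCT, untreated, they became 2 without the count filter, 1 with only the groups compared, 1 without number 3 in both WT groups, 2 without number 3 in every group, and 0 to 1 on leaving out each library. Over all genes the first of these settings called 480, the next 566, then 482 and 1816, in place of 63 in the main fit. For KO siCT minus WT the count was 2 without the count filter, where 24 of all genes were called in place of 0. For KO #11 minus KO siCT it was 2 without the count filter, 1 with only the groups compared, 1 without number 3 in both WT groups or in every group, and 0 to 1 on leaving out each library. In place of 0 of all genes in the main fit, 65 were called without the filter and 20 with only the groups compared. Without number 3 in both WT groups it was 102 of all genes, and without it in every group 244. With the replicate block, *SESN2* in untreated #11 against siCT passed (2.32, adjusted p = 0.0366), which gives 1 of 10, with 397 of all genes called, though the numbers do not pair those libraries. The block changed no other call of the 10 genes.

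Over all genes, fitting only the groups compared gave 84 calls in place of 1322 in WT, 553 in place of 1398 in KO siCT and 2636 in place of 1175 in KO #11. In KO siCT against WT untreated, 36 calls became 117 by DESeq2 and 322 without the count filter. Reverse-strand counts moved 58 of 80 group levels by less than 1 SD and changed no count of calls among the 10 genes. RLE scaling moved the median of all genes from -0.0587 to -0.1 in WT and by at most as much elsewhere.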
